A study of Arabidopsis thaliana with 30 samples.

Results

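The comparison set root meristems of Arabidopsis thaliana seedlings that had been on estradiol for 14 h against those that had been on it for 10 h, in a line that switches on the zinc finger gene ZAT14. Its fold changes rested on 6 of the 30 libraries of the series, 3 per group. It covered 17157 of 34218 genes. These were chosen for at least 1 FPKM in at least 3 of the 18 libraries of both ZAT lines. FPKM is a level in sequenced fragments, scaled to the length of the gene and the size of the library. Both groups were Col-0 seedlings, 5 days old, carrying pWOL(XVE)::ZAT14-TURQ, in which estradiol activates a fusion of ZAT14 to a turquoise fluorescent protein under the WOL promoter. That promoter drives expression in the root vascular cylinder and not in the whole meristem that was collected. Seedlings were moved to medium with 5 µM estradiol for 10 h or 14 h, and whole root meristems were cut from seedlings laid out in batches of 15, with RNA taken by oligo(dT). A DMSO group of the same line, also 3 libraries, served as a reference level. The parallel line pWOL(XVE)::ZAT14-like-TURQ, with the same groups, was used where the time step was compared between lines. Both also entered the main fit, which estimated the spread of each gene from all 18 libraries. The labels do not say how many transformed lines were used or whether replicate libraries stem from cultures grown apart. They also do not say how long the DMSO seedlings were treated or at which hour of the day any group was cut. The p-values therefore measure the spread between libraries within the 6 groups of both lines. Plants without a transgene given estradiol were not analysed here. Time on estradiol, time after transfer and hour of the day can therefore not be told apart in this comparison.

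ZAT14 belongs to the C2H2 zinc finger proteins with an EAR motif, a short peptide that recruits corepressors, and such proteins mostly lower transcription of the genes they bind. The circadian clock is a loop of morning factors (CCA1, LHY and their RVE relatives), PRR repressors and the evening complex (ELF3, ELF4, LUX), and it gates metabolism, growth and stress genes. The mitotic programme is a set of B-type cyclins, B-type CDKs, kinesins and spindle proteins transcribed in late G2 phase under MYB3R factors.

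Library depth was estimated from the steps between low values at 18.1 M to 25.9 M fragments in the 6 libraries, with 77.5% to 78.8% of those values whole within 0.05, so depth is approximate. The labelled tissue held its markers. The root cap factors SMB, BRN1, BRN2 and FEZ summed to 71.8 to 87.4 FPKM at 10 h and 83.1 to 84.6 at 14 h, and 7 root hair and epidermis markers to 113 to 118 and 117 to 122, while the Rubisco genes RBCS1A and RBCS3B stayed at or under 0.144 FPKM in these libraries. The sugar transporter SUC2 of companion cells had at most 0.295 FPKM. The list labelled endodermis and cortex markers held CASP1 to CASP5 and MYB36, all endodermis genes, and no gene for cortex alone. These 6 endodermis markers summed to 2.71 to 4.78 FPKM at 10 h and 4.71 to 9.18 FPKM at 14 h. The Casparian strip gene CASP1 was at 0, 0.104 and 0 FPKM at 10 h and 0.901, 1.51 and 0.243 FPKM at 14 h. CASP2 was at 0 in every 10 h library and at 0.193, 0.729 and 0 FPKM at 14 h. The part of these cells in the results was not tested. In bulk samples such as these, fewer cells of a type and less RNA per cell cannot be told apart. Libraries are named below by the replicate number in their titles, 2, 3 and 4 at 10 h and 1, 3 and 4 at 14 h, and all lists of per-library values follow that order.

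The targeted gene came first. ZAT14 (AT5G03510, chr5:880148-881347, 1 exon, plus strand, build TAIR10.1) was at 16.0, 13.9 and 15.6 FPKM in the DMSO libraries, at 51.6, 41.6 and 42.9 FPKM at 10 h and at 69.2, 63.9 and 71.4 FPKM at 14 h. All 14 h libraries lay above all 10 h libraries, and all of these above DMSO. Between 10 h and 14 h the log2 fold change was 0.58 (standard error 0.14, limma with Benjamini-Hochberg adjusted p = 0.019), on the log2(FPKM + 1) scale used for every fold change here, which understates changes of weakly expressed genes. Without 10 h library 3 or 4, or without 14 h library 1 or 4, the adjusted p of ZAT14 was between 0.065 and 0.088. Reads of the transgene and of the native gene cannot be separated in these values. ZAT14-like, its close relative, stayed under 1 FPKM in all 9 libraries of the line.

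Between 10 h and 14 h, 863 of 17157 genes (5.03%) changed at an adjusted p under 0.05, of which 412 (2.4%) rose and 451 (2.63%) fell. The changes were mostly modest, with a median absolute log2 fold change of 0.50 among called genes and 113 genes at 1 or more, of which 62 rose and 51 fell. The median over all genes was -0.0029. The filter was met within the 9 libraries of the ZAT14 line for 830 of the 863 called genes, and the other 33, of which 30 rose, met it only with libraries of the ZAT14-like line. An unadjusted p under 0.05 was found for 3133 genes (18.3%). The 3 libraries of one time did not overlap with those of the other for 859 of the called genes and for 4673 of all genes (27.2%). The count of called genes was 864 without 10 h library 2, 482 without 10 h library 3, 510 without 10 h library 4, 551 without 14 h library 1, 414 without 14 h library 3 and 441 without 14 h library 4. Of the 864 without 10 h library 2, 663 were among the 863 of the main fit.

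Flavonoid and phenylpropanoid genes made up 6 of the 12 largest rises. The rises were counted over called genes that have a symbol, average 5 FPKM or more at 14 h and had no overlap between the times. The 12 largest falls were chosen alike, with the mean taken at 10 h. Lack of overlap in both sets was thus fixed by the choice. The list of 22 flavonoid and phenylpropanoid genes was drawn up after its leading genes had been seen, so its counts describe and do not test it. Of 15 members that passed the filter, 9 rose and 1 fell, against 2.4% and 2.63% of all genes, and 5 did not pass. The median log2 fold change was 1.92. TT4, chalcone synthase, the first committed enzyme of flavonoid synthesis (AT5G13930, chr5:4488476-4490264, plus strand), was at 66.4, 50.3 and 120 FPKM at 10 h and 464, 460 and 397 FPKM at 14 h. The groups did not overlap, and the log2 fold change was 2.56 (standard error 0.35, adjusted p = 0.00056 by limma). TT5, chalcone isomerase, which closes the flavanone ring (AT3G55120, chr3:20430059-20431597, minus strand), was at 5.25, 2.12 and 9.72 FPKM at 10 h and 97.8, 92.1 and 70.4 FPKM at 14 h, the largest of those rises at 3.87 (standard error 0.55, adjusted p = 0.00068 by limma). Every 14 h library was higher than any 10 h library.

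The rise ran along the pathway. At its entry, PAL1, phenylalanine ammonia-lyase, was at 10.2, 5.23 and 30.0 FPKM at 10 h and 98.5, 77.4 and 53.9 FPKM at 14 h, a log2 fold change of 2.54. C4H, cinnamate hydroxylase, rose by 1.34, 4CL1 by 1.92 and 4CL3, coumarate:CoA ligases, by 3.35. CHIL, a chalcone isomerase-like protein, rose by 1.93. FLS1, flavonol synthase, was at 60.0, 34.5 and 122 FPKM at 10 h and 383, 352 and 235 FPKM at 14 h, a log2 fold change of 2.30. UGT78D1, which adds rhamnose to flavonols, was at 0.701, 0.641 and 1.01 FPKM at 10 h and 21.7, 18.7 and 9.52 FPKM at 14 h, a log2 fold change of 3.24 (adjusted p = 0.00035 by limma). For PAL1, FLS1 and UGT78D1 too, no 10 h library reached the lowest 14 h library. Members that did not pass were PAL2 (0.70), PAL4 (0.43), 4CL2 (0.02), TT7 (1.13) and UGT78D2 (0.55). The anthocyanin genes DFR and LDOX and the proanthocyanidin gene BAN were at or under 0.0768 FPKM in all 9 libraries of the line. F3H was at or under 0.105 FPKM in all 18 libraries, and in the annotation 94.5% of its length lies under AT3G51238 on the opposite strand.

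The exception in the list was MYB12, a MYB factor known as an activator of TT4, TT5 and FLS1. MYB12 (AT2G47460, chr2:19476326-19479597, plus strand) was at 74.9, 25.9 and 107 FPKM at 10 h and at 9.81, 9.05 and 17.1 FPKM at 14 h. The groups did not overlap although the 10 h libraries differed widely, and the log2 fold change was -2.27 (standard error 0.52, adjusted p = 0.017 by limma). Without 10 h library 2 the adjusted p of MYB12 was 0.054, without 10 h library 4 0.087, without 14 h library 1 0.065 and without 14 h library 3 0.084. Without 10 h library 3 the calls of FLS1 (adjusted p 0.052), 4CL3 (0.082) and PAL1 (0.11) were also lost, without 10 h library 2 that of PAL1 (0.057), and without 14 h library 1 or 3 those of 4CL3 and PAL1 (0.064 to 0.085). C4H lost its call without 10 h library 3 and without 14 h library 1 or 3. The list had 5 members called higher without 10 h library 3, against 9 with all libraries. TT4, TT5, UGT78D1, 4CL1 and CHIL kept theirs in every fit that left out 1 library.

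The level in the DMSO group set this rise in proportion. TT4 was at 323, 168 and 388 FPKM with DMSO, TT5 at 70.3, 29.7 and 85.8 FPKM, and FLS1 at 375, 192 and 447 FPKM. Against DMSO, the log2 fold change of TT4 was -1.89 at 10 h (adjusted p = 0.0073) and 0.67 at 14 h (adjusted p = 0.36), that of TT5 was -3.28 (0.0046) and 0.60 (0.69), and that of FLS1 was -2.31 (0.013) and -0.01 (1.00), all by limma. These comparisons called 551 genes (3.21%) at 10 h and 735 (4.28%) at 14 h. They share libraries with the one between 10 h and 14 h and are not independent of it. DMSO library 2 was the lowest of its group for all 3 genes and the highest for MYB12 (33.2, 106 and 52.2 FPKM). In the TT4 promoter a single G-box, the CACGTG element bound by bZIP and bHLH factors, lay 233 bases before the annotated start. It is shown in capitals on the strand of the gene in the 300 bases before that start, from TAIR10.1, since TT4 is the first committed enzyme of the pathway.
TT4 (chr5:4488176-4488475, plus strand): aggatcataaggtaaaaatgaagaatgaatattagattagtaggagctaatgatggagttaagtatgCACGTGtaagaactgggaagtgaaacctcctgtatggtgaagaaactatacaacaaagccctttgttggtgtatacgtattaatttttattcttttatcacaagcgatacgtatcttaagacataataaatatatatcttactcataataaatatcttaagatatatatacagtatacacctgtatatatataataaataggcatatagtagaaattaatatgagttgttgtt
Of the 17113 tested genes with such a window, 8.05% held a G-box on either strand, against 4 of the 15 flavonoid genes. The MYB element ACCTANC, searched on both strands, was in 2 of 15, against 6.12% of all windows and 46 of the 412 genes that rose (11.2%). A match is a string of letters and not a shown binding site.

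**Figure D1:**
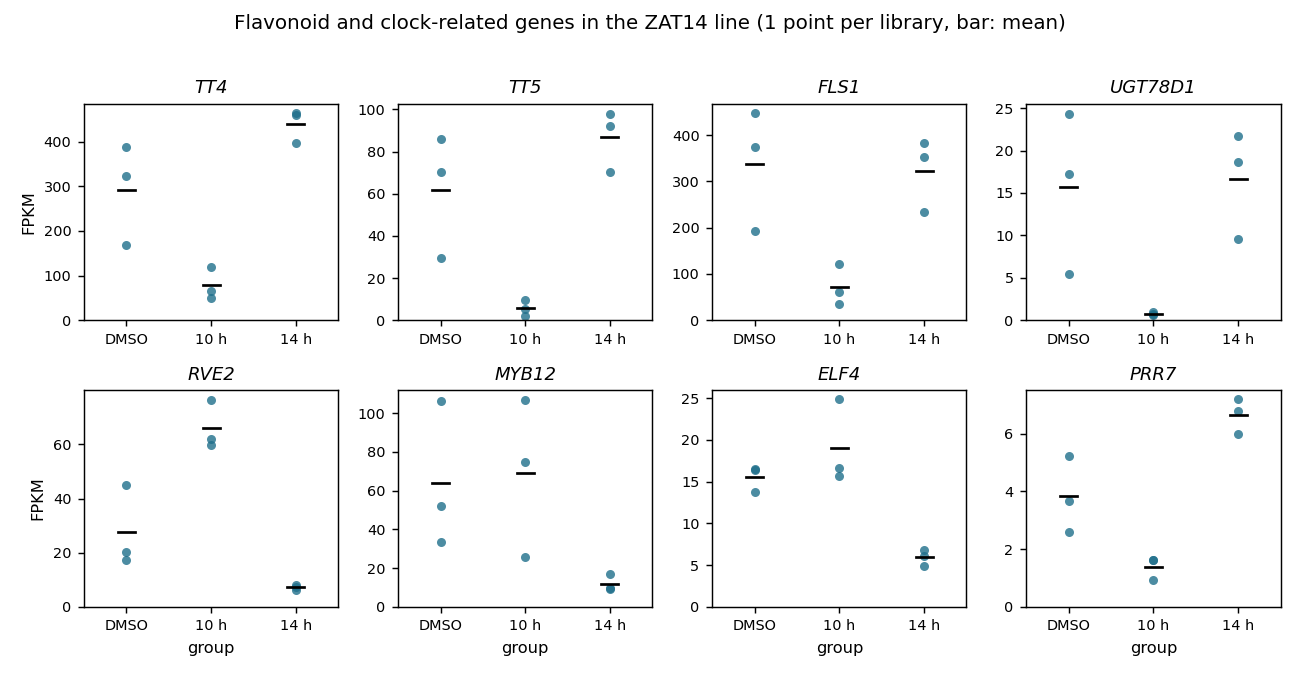
Levels of 4 flavonoid genes (top row) and of 4 regulators (bottom row) in the ZAT14 line, in FPKM on a linear axis from 0, with 1 point per library and a bar at the mean of 3 libraries. TT4, TT5, FLS1 and UGT78D1 were low at 10 h and back in the DMSO range or near it at 14 h, while RVE2, MYB12 and ELF4 were lowest at 14 h and PRR7 highest there.

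Other genes among the 12 largest rises followed the same course of low values at 10 h. KAT5, a peroxisomal thiolase of fatty acid breakdown, was at 3.97, 2.02 and 7.22 FPKM at 10 h and 73.6, 68.7 and 49.6 FPKM at 14 h (log2 fold change 3.69), with 62.5, 22 and 80.2 FPKM in DMSO. ERD9, a glutathione transferase, rose by 3.59, ATS3, named as an embryo-specific protein, by 2.11, and KIN2, a cold and abscisic acid responsive gene, by 1.94. NPQ4, the PsbS protein of photoprotection, rose by 2.03, from 0.936, 0.210 and 1.92 FPKM to 7.34, 6.78 and 6.24 FPKM. It lost its call without 10 h library 3 (adjusted p = 0.061 by limma). The 5 green tissue markers summed to 1.41 to 2.74 FPKM at 10 h and 4.83 to 5.08 FPKM at 14 h, but only 2 were tested. LHCA1, which met the filter within the ZAT14 line, had a value of 0.77 and did not pass (adjusted p = 0.12 by limma). LHCB1.2 rose by 0.71, a call lost without 10 h library 3 (adjusted p = 0.075) or 14 h library 1 (0.070) or 4 (0.087). It has near-identical copies that share reads, and it met the filter only with libraries of the ZAT14-like line. The part of green cells in this was not tested. All tested genes of this paragraph were without overlap between the times, which for those among the 12 largest rises was a condition of their choice.

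One of the 12 differed in its course. scpl37, a serine carboxypeptidase-like protein (AT3G52010, chr3:19296183-19298171, plus strand), was listed at 0 in all 3 DMSO libraries, at 2.85, 0.559 and 1.09 FPKM at 10 h and at 9.84, 11.2 and 12.5 FPKM at 14 h. Its log2 fold change between the times was 2.38 (standard error 0.21, adjusted p = 1.4e-05 by limma), and it thus rose at both steps from a level of 0. In the ZAT14-like line it was also listed at 0 in DMSO and rose by 2.08 between the same times.

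Clock genes fell more often than they rose. Of 11 tested members of a list of 12, 6 fell and 1 rose, against 2.63% and 2.4% of all genes, with a median log2 fold change of -0.47. No overlap between the times was seen for 8 of the 11, against 27.2% of all genes. ELF4, a subunit of the evening complex (AT2G40080), was at 15.6, 16.6 and 24.9 FPKM at 10 h and 6.03, 6.78 and 4.93 FPKM at 14 h, a log2 fold change of -1.52 (standard error 0.21, adjusted p = 0.00061 by limma). Its partners LUX and ELF3 fell by 0.65 and 0.42. PRR5 (AT5G24470), a repressor of the morning factors, was at 3.19, 2.89 and 3.53 FPKM at 10 h and 0.600, 0.407 and 0.682 FPKM at 14 h, a log2 fold change of -1.43 (standard error 0.16, adjusted p = 8.4e-05 by limma). TOC1, the founding PRR gene, fell by 0.52 and the morning factor CCA1 by 1.04. For all of these, every 14 h library was below every 10 h library.

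PRR7 (AT5G02810), a morning to midday repressor of CCA1 and LHY, was the member that rose, from 1.61, 0.922 and 1.61 FPKM to 6.00, 6.78 and 7.19 FPKM, a log2 fold change of 1.70 (standard error 0.23, adjusted p = 0.00056 by limma). The 10 h libraries did not agree on other members. PRR9 was at 10.9, 0.837 and 16.4 FPKM at 10 h and GI at 9.74, 2.03 and 11.9 FPKM, so 10 h library 3 stood below its partners by a wide margin, and neither gene passed (adjusted p = 0.97 and 0.30). Library 3 was also the lowest of the 10 h libraries for TT4, TT5, FLS1 and MYB12. LHY and RVE8 did not pass either, at -0.47 and 0.16. LUX overlaps AT3G46650 on the opposite strand over 38.5% of its length, and since the library protocol in the labels does not mark strand, reads of overlapping genes cannot be told apart. CCA1 lost its call without 10 h library 2 or 4 or 14 h library 3 or 4, and ELF3 without 10 h library 2 or 4 or any 14 h library, with adjusted p of at most 0.10 and 0.20 over all alternatives.

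Relatives of the clock's morning factors that lie outside the list were among the largest falls. RVE2, a MYB-like factor (AT5G37260, chr5:14751344-14753088, minus strand), was at 59.8, 62.2 and 76.5 FPKM at 10 h and 7.92, 6.35 and 7.40 FPKM at 14 h. This was the largest fall of a named gene, at -3.03 (standard error 0.25, adjusted p = 9.4e-06 by limma), and the groups lay far apart. RVE1, which links the clock to auxin synthesis, was at 11.6, 10.3 and 12.7 FPKM at 10 h and 1.83, 1.65 and 1.91 FPKM at 14 h, a log2 fold change of -2.16 (adjusted p = 2.8e-05). Against DMSO (27.5 ± 15.1 FPKM, SD, n = 3), RVE2 was higher at 10 h by 1.35 (adjusted p = 0.0073) and lower at 14 h by a log2 fold change of -1.67 (adjusted p = 0.00073), again with shared libraries. RVE2 and RVE1 kept their calls in every alternative fit.

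The evening element AAATATCT, which CCA1 and RVE proteins bind, was searched on both strands of the same windows. It was in 4 of the 11 clock genes, all 4 among the 6 that fell. It was in 5.55% of all tested windows, in 52 of the 451 genes that fell (11.5%) and in 28 of the 412 that rose (6.80%). PRR5 held it 292 and 187 bases before its start. Its window is shown because its fall had the lowest adjusted p of the list, with the element in capitals, on the strand of the gene.
PRR5 (chr5:8358547-8358846, minus strand): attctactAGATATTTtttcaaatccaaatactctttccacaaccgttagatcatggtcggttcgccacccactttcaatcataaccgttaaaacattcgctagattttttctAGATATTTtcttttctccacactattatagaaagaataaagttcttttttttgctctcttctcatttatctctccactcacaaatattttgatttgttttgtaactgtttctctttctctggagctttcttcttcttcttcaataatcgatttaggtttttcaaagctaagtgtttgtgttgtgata
The G-box was in 5 of the 11 clock genes, in 14.4% of the genes that fell and in 10.2% of those that rose.

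Genes known to rise when sugar runs short formed another group of falls. This list of 15 was also chosen after values had been seen, and it is described without a test. Of 12 members that passed the filter, 10 fell and 0 rose, against 2.63% and 2.4% of all genes. The median log2 fold change was -1.27. DIN10, a raffinose synthase family gene switched on by darkness and sugar lack, was at 14.8, 21.5 and 18.2 FPKM at 10 h and 6.39, 4.93 and 5.77 FPKM at 14 h, a log2 fold change of -1.51 (standard error 0.19, adjusted p = 0.00029 by limma). BZO2H3, a bZIP factor of low-energy responses, fell by 1.42, BXL1, a wall beta-xylosidase, by 1.37, TPS8, a class II trehalose phosphate synthase gene, by 1.28, and MIOX2, myo-inositol oxygenase, by 1.21. DYL1, a dormancy-associated gene, was at 6.80, 11.5 and 10.9 FPKM at 10 h and 2.10, 3.31 and 2.76 FPKM at 14 h. No 14 h library reached a 10 h library for any of the 10. Lack of overlap held for 859 of the 863 called genes and 27.2% of all genes, so it adds nothing to these calls. With DMSO, DIN10 was at 7.46, 9.33 and 5.89 FPKM and DYL1 at 3.22, 4.19 and 2.62 FPKM, so their 14 h levels lay in or near the DMSO range. TPS10 (-0.45) and DIN2 (-0.04) did not pass, and ASN1 and SEN1, often used as starvation markers, were near 0 FPKM. Between 10 and 11 members were called lower in every fit that left out 1 library.

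The remaining large falls held regulators of stress and light responses. DREB2A, a drought and heat factor, was at 18.7, 11.9 and 25.8 FPKM at 10 h and 2.67, 2.20 and 5.27 FPKM at 14 h, a log2 fold change of -2.18 (adjusted p = 0.0033 by limma). SIGE, a plastid sigma factor, fell by 1.69 and BBX29, a B-box protein, by 1.55. PSY1, here the gene of a sulfated growth peptide, fell by 1.52, ATCTH, a CCCH zinc finger protein, by 1.51 and BMY3, annotated as a beta-amylase, by 1.62. None of them overlapped between the times, which was a condition of their choice. SIGE lost its call without 10 h library 2 (adjusted p = 0.052) or 4 (0.097) or 14 h library 1 (0.068) or 3 (0.095), and BBX29 without 10 h library 4 (0.050).

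Heat shock genes rose while DREB2A fell. Of 12 genes, again chosen after values had been seen, 10 passed the filter. Of these, 7 rose and 0 fell, against 2.4% and 2.63% of all genes, with a median log2 fold change of 1.27. HSP70, a cytosolic chaperone, was at 6.99, 5.77 and 7.47 FPKM at 10 h and 22.1, 30.4 and 28.2 FPKM at 14 h, a log2 fold change of 1.84 (adjusted p = 0.0012 by limma). HSFA2, a heat-induced transcription factor, was at 2.96, 1.92 and 1.69 FPKM at 10 h and 6.92, 8.02 and 10.7 FPKM at 14 h, a log2 fold change of 1.58 (adjusted p = 0.0033), and HSP90.1 rose by 1.42 and AT2G20560, listed with them, by 1.29. ROF2, an immunophilin co-chaperone, rose by 1.24 and its relative ROF1 by 0.38. The times did not overlap for these genes, which was so for 859 of the 863 called genes and 27.2% of all genes and adds nothing to the calls. HSP23.5, a mitochondrial small heat shock protein, was uneven at 14 h with 19.2, 48.5 and 52.4 FPKM, and it and ROF1 lost their calls without 10 h library 3 or 4 or 14 h library 3 or 4. HSP101 (0.60), HSFA1A (0.09) and HSP17.6II (0.15) did not pass.

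Mitotic genes were lower at 14 h, by small amounts. Of 28 genes, all tested, 9 fell and 0 rose, against 2.63% and 2.4% of all genes, 26 had a negative log2 fold change, and the median was -0.33. The list of 28 summed to 643, 600.3 and 546 FPKM at 10 h and 497, 470.3 and 458 FPKM at 14 h, without overlap, and to 565, 627 and 551 FPKM in DMSO. CYCB2;3, a B-type cyclin that drives entry into mitosis (AT1G20610), was at 22.9, 23.8 and 19.4 FPKM at 10 h and 17.0, 13.8 and 14.6 FPKM at 14 h, a log2 fold change of -0.51 (standard error 0.10, adjusted p = 0.0068 by limma). The 14 h libraries lay below all 10 h libraries. CDKB2;2, a plant-specific mitotic kinase, fell by 0.50 and its partner CDKB2;1 by 0.36. CYCB1;2 (AT5G06150) was at 40.7, 36.7 and 31.4 FPKM at 10 h and 27.7, 26.1 and 25.3 FPKM at 14 h, a log2 fold change of -0.44 (adjusted p = 0.017).

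Genes of the spindle and of cell plate formation were among the 9. HIK, a kinesin of the cytokinetic phragmoplast, fell by 0.44, KN, the cell plate syntaxin, by 0.41, PLE, a microtubule bundling protein, by 0.40, TPX2, a spindle assembly factor, by 0.39 and AUR1, an Aurora kinase, by 0.29. CYCB1;1 (-0.22), CDC20.1 (-0.35), MAD2 (-0.33) and MYB3R4 (-0.33), an activator of this programme, did not pass, with adjusted p from 0.11 to 0.51. CYCA2;1 (0.20) and MYB3R1 (0.09) had positive values. The count rested on single libraries: it was 2 without 10 h library 2, 1 without 10 h library 3, 1 without 14 h library 3, 1 without 14 h library 4, 6 without 14 h library 1 and 8 without 10 h library 4, and 2 without the 3 libraries numbered 2, an alternative chosen after seeing the data. CYCB2;3 kept its call in each of the 6 fits that left out 1 library. KN overlaps a neighbour on the opposite strand over 31.4% of its length and AUR1 over 12.0%.

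DNA replication genes did not move with the mitotic ones. None of 22 was called by limma in either direction, 2 had an unadjusted p under 0.05, against 18.3% of all genes, and the median log2 fold change was -0.02. Their sum was 489, 478 and 413 FPKM at 10 h and 462, 446 and 454 FPKM at 14 h, with overlap. MCM4, a helicase subunit, was at 0.01, PCNA1, the sliding clamp, at -0.03 and RNR2A, a ribonucleotide reductase subunit, at 0.22 (adjusted p = 0.23). A p that misses the threshold does not show that they were the same at both times. Of 15 tested cell cycle inhibitors and endocycle genes and 8 D-type cyclins, 0 were called, with 2 and 0 at an unadjusted p under 0.05. CCS52B, an activator of the anaphase-promoting complex that works in mitosis, had the lowest value, -0.35 (adjusted p = 0.15). Of 6 ribosome biogenesis genes 0 were called and 0 had an unadjusted p under 0.05, with values from 0.04 to 0.16.

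The core of the mitosis-specific activator element, AACGG, the site of MYB3R factors, was in the 300 bases before the start of 20 of the 28 mitotic genes (71.4%), on either strand, against 4 of 22 replication genes (18.2%), 9 of 15 inhibitor and endocycle genes (60.0%) and 25.4% of all tested windows. Among all genes that fell it was in 27.1%. CYCB2;3 and CYCB1;2, the cyclins with the clearest falls, carried it 3 and 4 times, and their windows are shown with the element in capitals.
CYCB2;3 (chr1:7137829-7138128, minus strand): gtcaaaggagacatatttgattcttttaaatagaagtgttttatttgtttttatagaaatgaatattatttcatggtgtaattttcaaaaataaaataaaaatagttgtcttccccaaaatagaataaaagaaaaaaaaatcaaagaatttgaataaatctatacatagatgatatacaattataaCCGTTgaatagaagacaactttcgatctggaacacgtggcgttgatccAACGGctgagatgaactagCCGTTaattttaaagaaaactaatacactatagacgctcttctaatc
CYCB1;2 (chr5:1861704-1862003, minus strand): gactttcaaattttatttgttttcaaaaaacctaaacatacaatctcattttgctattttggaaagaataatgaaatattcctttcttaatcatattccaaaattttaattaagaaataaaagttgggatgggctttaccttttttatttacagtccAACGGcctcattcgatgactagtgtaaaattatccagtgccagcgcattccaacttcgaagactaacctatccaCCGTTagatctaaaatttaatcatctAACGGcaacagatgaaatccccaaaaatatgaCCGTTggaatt
In CYCB1;2 the matches began 143, 69, 43 and 11 bases before the start, and in CYCB2;3 114, 66 and 47 bases before it.

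**Figure D2:**
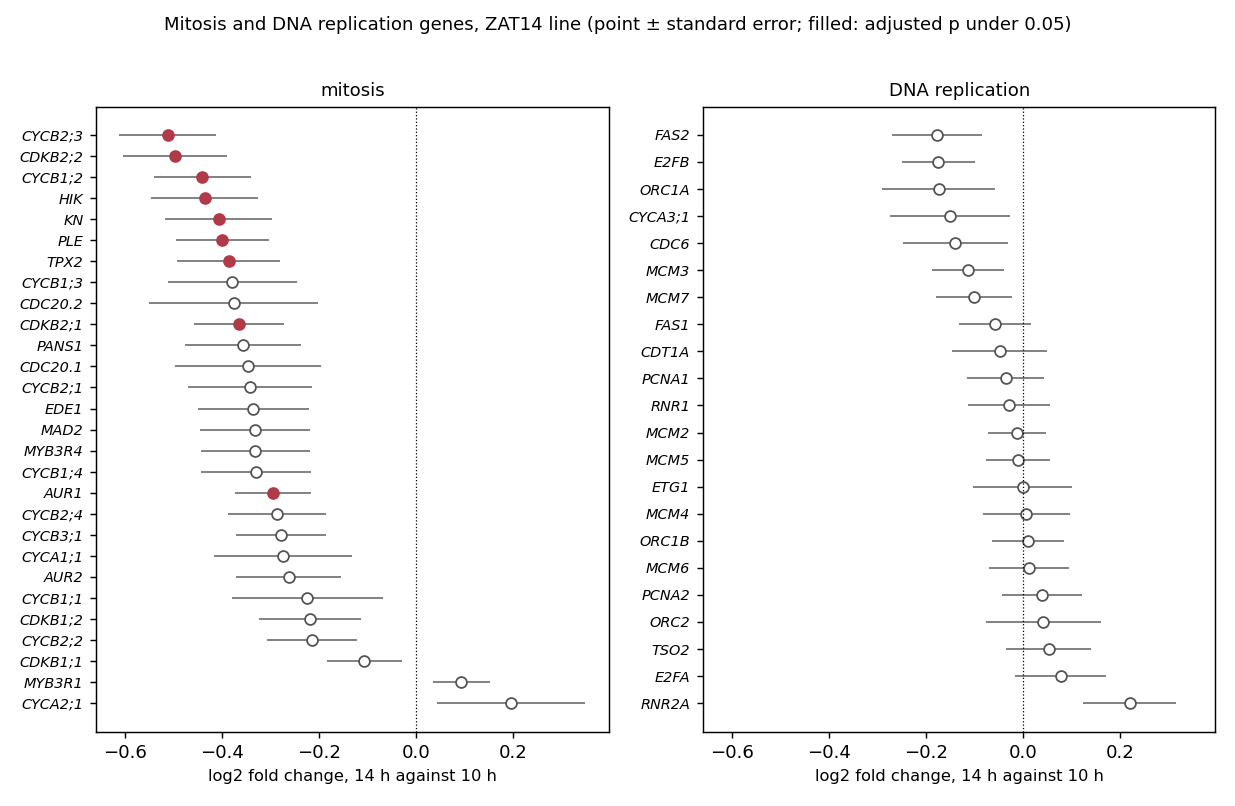
Log2 fold change from 10 h to 14 h in the ZAT14 line for 28 mitotic genes (left) and 22 DNA replication genes (right), on the log2(FPKM + 1) scale, with bars of 1 standard error and filled points at an adjusted p under 0.05. On the left 26 of 28 points lie below 0 and 9 are filled, and on the right none is filled and the points lie between -0.18 and 0.22.

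Genes of xylem vessels rose in part. Of 13 tested members of a list of 17, 4 rose and 1 fell, against 2.4% and 2.63% of all genes, with a median log2 fold change of 0.33, and 9 were without overlap, against 27.2% of all genes. Of the 13, 9 met the filter within the ZAT14 line. CESA8, IRX9 and LAC4, which are 3 of the 4 that rose, and MYB46 met it only through the ZAT14-like line, where they were higher, so these counts are no support for a rise of the list. XCP1, a cysteine protease that clears the contents of dying vessel cells (AT4G35350), was at 7.13, 6.23 and 9 FPKM at 10 h and 16.0, 14.6 and 14.3 FPKM at 14 h, a log2 fold change of 0.93 (standard error 0.24, adjusted p = 0.034 by limma), and at 4.59, 1.57 and 2.64 FPKM in DMSO. The 3 groups did not overlap. XCP1 lost its call in 8 of 15 alternatives, among them those without 10 h library 2 or 3 or any 14 h library, a pseudocount of 0.1 FPKM and no filter, with adjusted p of at most 0.14. CESA8, a cellulose synthase of the secondary wall, was at 0.0799, 0.155 and 0.0820 FPKM at 10 h and 0.458, 0.459 and 0.762 FPKM at 14 h, a log2 fold change of 0.49. IRX9, a xylan synthesis protein, rose by 0.69 and LAC4, a lignin laccase, by 0.64, both from at most 0.334 FPKM at 10 h. CESA4 (0.25), CESA7 (0.33) and MYB46 (0.40), a master switch of the secondary wall, had no overlap but did not pass, with adjusted p of 0.18, 0.089 and 0.14.

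ACL5, the thermospermine synthase that delays vessel maturation, went the other way. It was at 10.3, 10.4 and 9.80 FPKM in DMSO, 6.30, 7.01 and 5.21 FPKM at 10 h and 3.6, 3.15 and 3.74 FPKM at 14 h, a log2 fold change of -0.67 between the times (standard error 0.13, adjusted p = 0.0079 by limma). Each group lay below the one before. The nucleases and proteases of vessel death BFN1 (-0.21), RNS3 (-0.08) and MC9 (-0.06) did not pass. The rising count rested on single libraries: it was 1 without 10 h library 2, 14 h library 3 or 14 h library 4, 2 without 10 h library 3 or 4, and 3 without 14 h library 1, while ACL5 kept its call in each. It was also 1 where the fit held the 9 libraries of the line alone or the 6 compared libraries alone, which tested 9 of the 13 genes. The switch genes VND6, VND7 and MYB83 stayed below the filter, with at most 0.936 FPKM in the ZAT14 line. TERE, the tracheary element regulating element known from xylem protease genes, searched on both strands, was in 3 of the 13 windows (XCP1, CESA4 and MC9) against 0.462% of all windows. It is shown in capitals, 75 bases before the start of XCP1, in the 265 bases that separate this gene from its neighbour.
XCP1 (chr4:16810217-16810481, plus strand): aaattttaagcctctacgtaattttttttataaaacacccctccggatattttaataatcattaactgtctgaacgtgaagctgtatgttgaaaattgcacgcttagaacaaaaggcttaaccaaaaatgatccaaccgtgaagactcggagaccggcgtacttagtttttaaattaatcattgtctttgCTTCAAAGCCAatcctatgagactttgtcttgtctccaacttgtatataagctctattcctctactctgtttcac

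**Figure D3:**
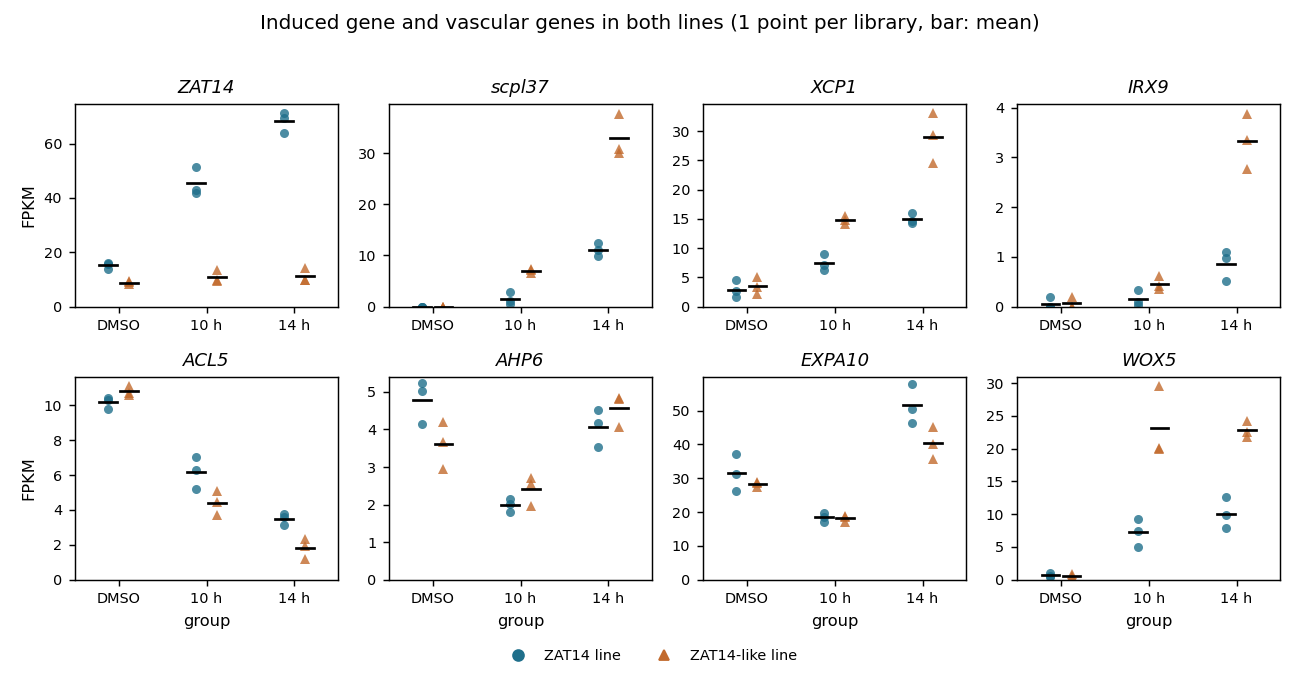
FPKM in the DMSO, 10 h and 14 h groups of the ZAT14 line (circles) and the ZAT14-like line (triangles) for ZAT14, scpl37 and 6 genes of vascular tissue, the cell wall and the stem cell niche, with 1 symbol per library, a bar at each mean and axes from 0. XCP1, scpl37 and IRX9 rose and ACL5 fell from 10 h to 14 h in both lines, and AHP6 and EXPA10 were lowest at 10 h.

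Among 12 tested genes of the procambium, 1 rose and 2 fell, against 2.4% and 2.63% of all genes. AHP6, a cytokinin signalling inhibitor of protoxylem cells, was at 2.02, 1.79 and 2.16 FPKM at 10 h and 3.54, 4.51 and 4.16 FPKM at 14 h, a log2 fold change of 0.76 (adjusted p = 0.0018 by limma), with 5.02, 5.23 and 4.14 FPKM in DMSO. The HD-ZIP III factors PHB and CNA, which pattern the xylem, both fell by 0.37, PHB from 19.7, 20.0 and 22.1 FPKM to 15.4, 16.7 and 15.2 FPKM. No overlap was seen for these genes. CNA lost its call without 10 h library 3 (adjusted p = 0.080) or 14 h library 1 (0.061) or 4 (0.084). REV (-0.10), PHV (0.01) and ATHB8 (0.10), the other members of that family, did not pass.

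Auxin response genes rose in 4 of 10 tested members, against 2.4% of all genes, with a median log2 fold change of 0.29, while in the ZAT14-like line 2 were called higher and the median was -0.18. GH3.2 and GH3.3, which are 2 of the 4, met the filter only through the ZAT14-like line. GH3.3, an auxin-conjugating enzyme, was listed at 0 in DMSO and was at 0.234, 0.178 and 0.259 FPKM at 10 h and 0.883, 1.45 and 1.22 FPKM at 14 h, a log2 fold change of 0.83 (adjusted p = 0.0021 by limma). IAA19, an Aux/IAA repressor, rose by 0.72, from 4.27, 3.96 and 3.64 FPKM to 7.93, 7.47 and 6.23 FPKM. GH3.2 rose by 0.48 from at most 0.211 FPKM and IAA1 by 0.38. All 4 were without overlap, as were 859 of the 863 called genes and 27.2% of all genes, which adds nothing to the calls. IAA1 lay just inside the threshold (adjusted p = 0.04999) and lost its call without any 1 of the 6 libraries, and GH3.2 without 10 h library 3 or 4 or 14 h library 3 or 4, with adjusted p up to 0.21 and 0.10 over all alternatives. The list then had 2 members called in place of 4. Of 8 cytokinin response regulators 0 were called and 2 had an unadjusted p under 0.05, against 5.03% and 18.3% of all genes. These 2 were ARR6 at 0.40 and ARR7 at 0.43.

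Wall loosening genes split. EXPA10, an expansin (AT1G26770, chr1:9259432-9261313, plus strand), was at 18.6, 19.7 and 17.0 FPKM at 10 h and 46.4, 57.9 and 50.4 FPKM at 14 h, a log2 fold change of 1.43 (standard error 0.11, adjusted p = 9.4e-06 by limma), with 31.4, 26.4 and 37.0 FPKM in DMSO. EXPA1 rose by 1.32, from 25.1, 26.6 and 34.0 FPKM to 71.8, 77.7 and 67.2 FPKM, and XTH5, a xyloglucan-modifying enzyme, by 0.32. XTH4 and XTH9, of the same enzyme family as XTH5, fell by 0.64 and 0.87. The times did not overlap for any of the 5, as for 859 of the 863 called genes and 27.2% of all genes, which adds nothing to the calls. The other 5 of 10 members did not pass, and XTH17, XTH18 and XTH19 were uneven at 10 h, at 4.68, 16.2 and 24.6 FPKM for XTH17. XTH5 lost its call without 10 h library 4 or 14 h library 3 or 4, and XTH9 without 14 h library 3 (adjusted p = 0.051).

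In the stem cell niche list 2 of 11 tested genes rose, against 2.4% of all genes, and 0 fell. SCR, a GRAS factor of the endodermis and quiescent centre, was at 29.7, 28.5 and 30.6 FPKM at 10 h and 36.9, 36.4 and 35.2 FPKM at 14 h (log2 fold change 0.28, adjusted p = 0.026 by limma), and its target MGP rose by 0.49. They did not overlap, but neither call held without 10 h library 4 or any 14 h library. WOX5, the homeobox gene of the quiescent centre, was at 0.446, 0.567 and 1.07 FPKM in DMSO, 9.26, 5.05 and 7.51 FPKM at 10 h and 7.84, 9.89 and 12.6 FPKM at 14 h. Both times lay above DMSO and overlapped with each other, and the step between them did not pass (0.44, adjusted p = 0.26). PLT1 (0.04), PLT2 (0.12), PLT3 (0.04) and BBM (0.28) did not pass.

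Phloem lists gave no call. Of 5 sieve element maturation genes, 10 protophloem specification genes and 1 companion cell gene tested, 0 were called, with 1, 1 and 0 at an unadjusted p under 0.05, against 18.3% of all genes. APL, a regulator of phloem identity, was at 4.19, 2.94 and 3.78 FPKM at 10 h and 4.63, 4.48 and 4.97 FPKM at 14 h (log2 fold change 0.30, adjusted p = 0.19 by limma), and BRX, of the protophloem, had a value of 0.48 (adjusted p = 0.11). Root cap markers (4), endodermis markers (2) and root hair and epidermis markers (7) also gave 0 calls, with 0, 0 and 1 at an unadjusted p under 0.05. In the stress list WRKY40, a wound and pathogen response factor, rose by 0.57 (adjusted p = 0.039 by limma) and the other 5 tested genes did not pass. The WRKY40 call was lost without 10 h library 2 or 3 or any 14 h library. Of 6 tested C2H2 genes with an EAR motif, ZAT14, the induced gene itself, was the 1 that was called. Of all genes, 5.03% were called.

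**Figure D4:**
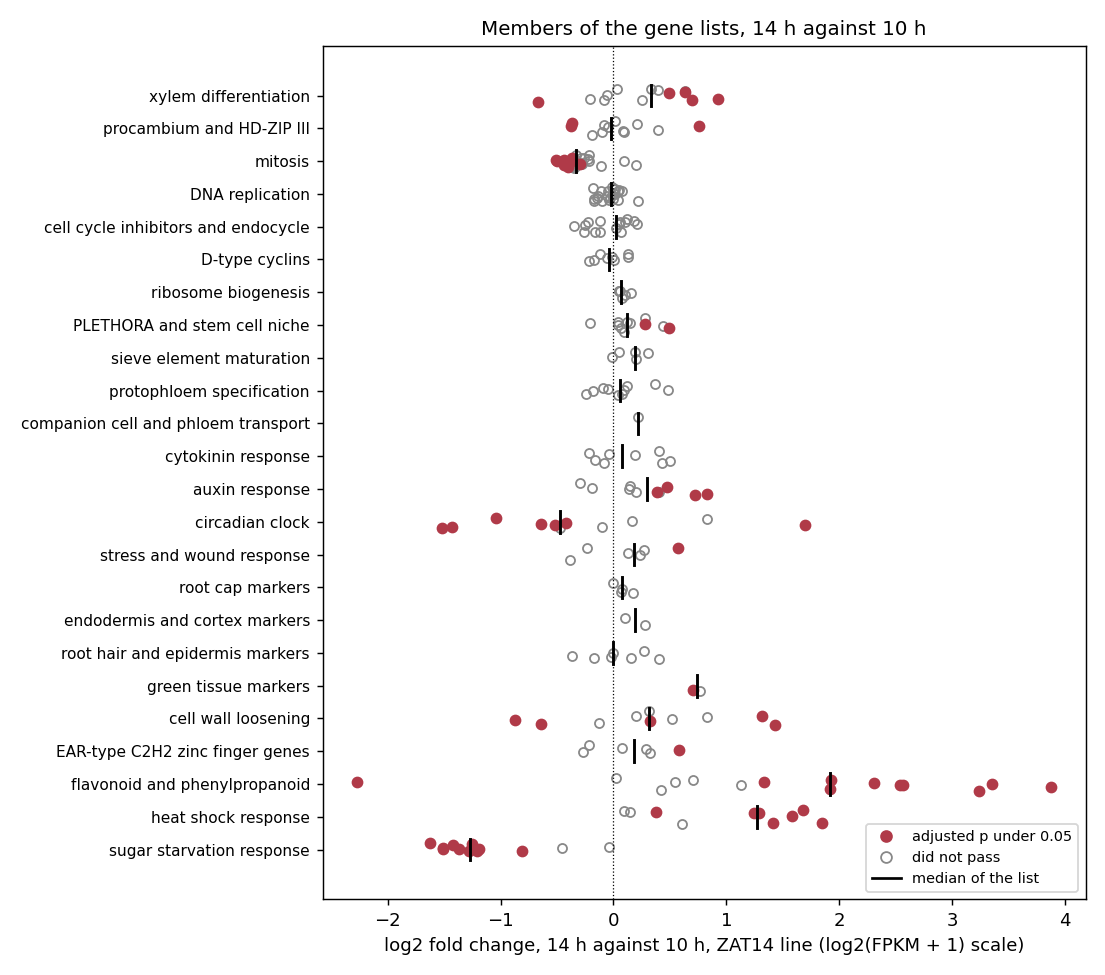
Log2 fold change from 10 h to 14 h in the ZAT14 line, on the log2(FPKM + 1) scale, for every tested member of 24 gene lists, filled where the adjusted p was under 0.05, with a bar at each list's median. Points are shifted vertically at random within a list, and the lowest 3 lists (flavonoid, heat shock and sugar starvation genes) were chosen after values had been seen.

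The same step in the ZAT14-like line, from separate libraries, was set beside these values. Both steps came from the same fit, with the same filter and the same estimate of spread for each gene. Calls shared by the lines are therefore not independent. There 1485 genes (8.66%) were called, 639 higher (3.72%) and 846 lower (4.93%), and 678 to 2413 with 1 library left out. Of the 863 genes called in the ZAT14 line 560 were called in the same direction in both, which is 64.9% of the ZAT14 calls and 37.7% of the ZAT14-like calls, with 283 higher and 277 lower, and 0 were called in opposite directions. The sign was the same for 853 of the 863 (98.8%), against 69.6% of all tested genes. Pearson's r between the lines' log2 fold changes was 0.71 across genes, a description, since genes are not independent replicates and all libraries passed through 1 table.

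Values by gene were close for the leading groups. TT5 rose by 3.87 in the ZAT14 line and 3.08 in the ZAT14-like line, TT4 by 2.56 and 2.32, while RVE2 fell by 3.03 and 3.17 and MYB12 by 2.27 and 2.26. Mitotic genes were called lower in 9 and 24 of 28, with medians of -0.33 and -0.55, and xylem genes higher in 4 and 7 of 13, with medians of 0.33 and 0.71. LAC4, for example, rose by 0.64 and 1.84. No difference between the lines passed for any member of the 24 lists, the lowest adjusted p being 0.11 for LAC4, which does not show that the lines acted alike.

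The test of that difference called 5 genes by limma (0.0291%), 1 with a larger rise in the ZAT14 line (0.00583%) and 4 with a smaller one (0.0233%). An unadjusted p under 0.05 was found for 781 of 17157 genes, against 3133 for the step from 10 h to 14 h in the ZAT14 line. EMB1030, an alanyl-tRNA synthetase gene (AT5G22800), was at 3.16, 2.94 and 2.84 FPKM at 10 h and 3.74, 4.41 and 4.66 FPKM at 14 h in the ZAT14 line, a rise of 0.40. In the ZAT14-like line its mean was 4.43 ± 0.316 FPKM (SD, n = 3) at 10 h and 13.7 ± 2.62 FPKM at 14 h, a rise of 1.42. The other 4 have no symbol in the annotation and were named after their values were seen. AT3G17190 was at 0.616, 0 and 0.295 FPKM at 10 h and 2.96, 2.87 and 5.08 FPKM at 14 h in the ZAT14 line, and was listed at 0 in all 3 libraries of the ZAT14-like line at 14 h. AT4G32950, AT1G21528 and AT3G10590 stayed at or under 0.829 FPKM in the ZAT14 line and reached means of 4.77, 7.5 and 3.89 FPKM at 14 h in the ZAT14-like line. AT3G17190 met the filter only through the ZAT14 line at 14 h and these 3 only through the ZAT14-like line at 14 h, so 4 of the 5 were tested because of the group in which they were high. With 1 of the libraries left out the count ran from 0 to 4, and it was 0 without ZAT14 14 h library 1 or 4 or ZAT14-like 14 h library 1 or 3, with 559 to 767 genes at an unadjusted p under 0.05.

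**Figure D5:**
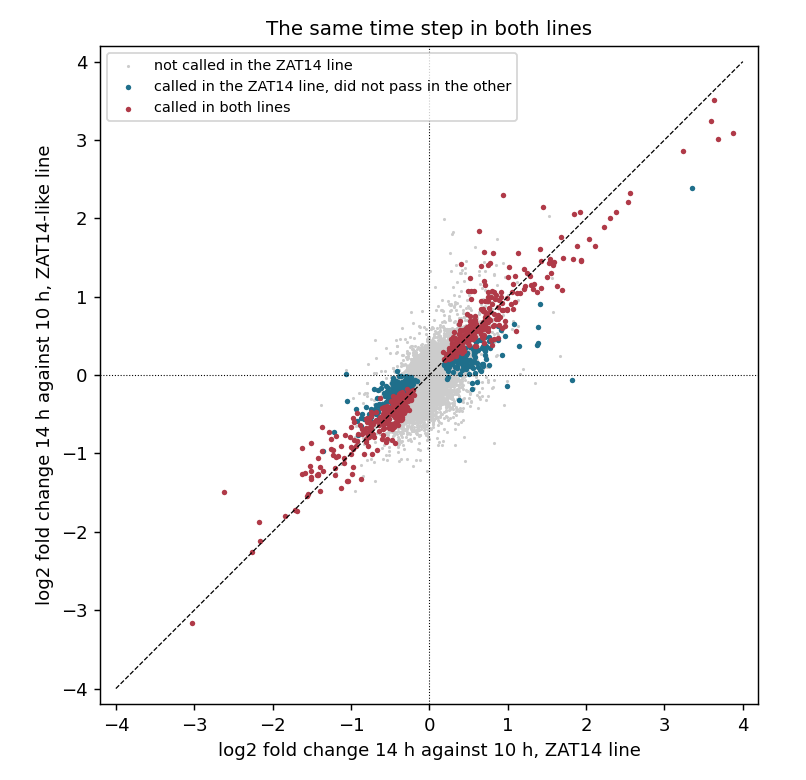
Log2 fold change from 10 h to 14 h of 17157 genes in the ZAT14 line (x axis) and in the ZAT14-like line (y axis), on the log2(FPKM + 1) scale, with a dashed line of equal change. Of the 863 genes called in the ZAT14 line, 853 have the same sign in both lines, and 560 were called in both.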

How the data were processed

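The series holds 30 libraries, 24 of whole root meristems and 6 of sorted cells, and the 18 meristem libraries in the table of both ZAT lines were fitted. Reads were processed with TopHat2 and HTSeq on TAIR10, per the submitters' processing notes, and the authors deposited FPKM values per gene; versions are not given in the sources used here. FPKM are not counts, so no count model was used, and depth is known only as an estimate from the steps between low values. Of 34218 gene IDs, 32548 matched the TAIR10.1 annotation used for names, positions and sequences.

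Genes that reached 1 FPKM in 3 or more libraries were tested on log2(FPKM + 1) with limma 3.58.1 (R 4.3.3, trend, two-sided), all 18 libraries as 6 group means, with Benjamini-Hochberg adjustment over 17157 genes and a threshold of 0.05. Tables and figures were made with Python 3.11.15. The fit was tested on simulated data first. Named genes were ZAT14 and ZAT14-like, the 12 largest rises and 12 largest falls among called genes with a symbol, no overlap between the times and a mean of at least 5 FPKM, up to 4 called members per list, and, for the difference between lines, up to 5 per side. Other list members are named as examples. The genes, lists and tests were chosen with earlier results of these data known, and 3 of the 24 lists after their values here were seen. Motifs were searched on both strands of the 300 bases before each annotated start, less bases inside a neighbouring gene for the printed windows. Replicate numbers 3 and 4 are shared by both times, and their libraries' deviations correlated at 0.08 and -0.0043, so they were not treated as pairs. Alternatives were another pseudocount, no filter, rescaling, a replicate block, array weights, fewer libraries in the fit, a fold minimum and each library left out. The sequence of 1 further promoter window is not reported here.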

Additional observations from a re-analysis of the deposited data

Results flagged for a closer look

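EMB1030, the alanyl-tRNA synthetase gene, was picked out because its step from 10 h to 14 h differed between the lines in the test of the difference itself. The difference was -1.02 on the log2 scale (limma, Benjamini-Hochberg adjusted p = 0.028), with a rise of 0.40 in the ZAT14 line and 1.42 in the ZAT14-like line. The rise in the ZAT14 line (adjusted p = 0.043) lost its call in 9 of 15 alternatives, and no difference between lines was called with a pseudocount of 0.1 FPKM (749 genes at an unadjusted p under 0.05) or with the replicate block (1239). All 3 libraries at 14 h lay above all 3 at 10 h in both lines.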

How the results depend on the processing

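Of 52 named genes that were called, 27 kept their call in each of the 15 other settings that tested them, 25 lost it in at least 1, and 0 reversed. GH3.3, among the 27, was tested in 13 of these settings. It was below the filter in the fits of the 9 libraries of the line alone and the 6 compared libraries alone. For the ZAT14 line the 863 calls became 113 with a log2 fold change of at least 1 also required, 361 with the replicate block, of which 328 were among the 863, 2755 with array weights, and 1546 without ZAT14-like 10 h library 1, an alternative chosen after seeing the data. With 1 library left out there were 414 to 864. The block fit took the mitotic genes called lower from 9 to 1, flavonoid genes called higher from 9 to 4 and xylem genes called higher from 4 to 0, while array weights took them to 19, 11 and 6, and the 9 libraries of the line alone gave 13 mitotic and 10 flavonoid genes and 1 of 9 xylem genes. The replicate numbers were not shown to pair the libraries: deviations of same-numbered libraries correlated at 0.08 and -0.0043 between the times, and within the ZAT14 line with DMSO at 0.42 (number 2 at 10 h), 0.15 (number 1 at 14 h), -0.048 and -0.018 (number 4 at 10 h and 14 h). For the ZAT14-like line the 1485 calls became 151 with the fold minimum, 718 with the 9 libraries of that line alone, and 678 to 2413 with 1 library left out. The 5 differences between lines became 0 with a pseudocount of 0.1 (749 at an unadjusted p under 0.05), 15 with no filter, 0 with the replicate block (1239 at an unadjusted p under 0.05) and 0 to 4 with 1 library left out. The cause of these shifts was not tested. Median-ratio rescaling gave 865 calls, 433 higher and 432 lower, against 412 and 451. FPKM carry no exact depth, so genes near 0 have no counting interval here.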
